A study of Homo sapiens and Mus musculus with 15 samples.

Results

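Transcript levels of 7 genes were followed in myeloma cells that had become resistant to a proteasome inhibitor: MAF, 3 genes reported as its targets (ITGB7, CCR1 and NUAK1) and the D cyclins CCND1, CCND2 and CCND3. The genes were taken as a named list, 7 of the 23346 genes in the human tables and 7 of the 23329 in the mouse tables, where the same symbols appear in title case. RNA was sequenced in 15 libraries, in 5 groups of 3. The human line RPMI-8226, called 8226 here, gave a carfilzomib-resistant group (CR, maintained in 10 nM carfilzomib), a bortezomib-resistant group (BR, maintained in 10 nM bortezomib) and a drug-naive group. The mouse line 5TGM1, from a plasma cell myeloma of C57Bl/KaLwRij mice, gave a bortezomib-resistant group (BR, maintained in 20 nM bortezomib) and a drug-naive group. All were grown in the same medium. The resistant cells had been raised in rising drug over months and had been off drug for 5 days when RNA was taken, so none of the libraries was made under drug. The labels name 1 resistant line per drug and parent line, so changes that came with deriving that line cannot be told apart from resistance. They do not say whether the 3 replicates were separate cultures, and p-values therefore cover only how far these libraries differ, and that spread may be technical.

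MAF is a basic leucine zipper transcription factor that binds an extended palindrome, the MAF recognition element. In a subset of human myelomas a translocation places MAF beside an immunoglobulin locus, and 8226 is widely described as a line of this kind. In such myelomas MAF has been reported to raise ITGB7, a beta integrin subunit used in adhesion to stroma, CCR1, a receptor for inflammatory chemokines, NUAK1, an AMPK-related kinase, and CCND2. The D cyclins activate the kinases CDK4 and CDK6, which phosphorylate RB and so release E2F factors at the start of the cell cycle, and raised expression of at least one D cyclin is a common feature of myeloma.

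Promoter windows are shown for MAF and for the pair of reported targets that changed most with resistance, ITGB7 and CCR1, so that the letters near their annotated starts can be read beside their levels. Each window runs from 250 bases before to 50 bases after the start of the gene as annotated by RefSeq on GRCh38.p14, on the minus strand in all 3 cases, so the last 50 bases are the start of the first exon. These coordinates belong to that build only, and the deposited tables carry none. The MAF window is chr16:79600688-79600987, the ITGB7 window chr12:53207202-53207501 and the CCR1 window chr3:46208264-46208563. Capitals mark GCTGAC on either strand, the core of one arm of the MAF recognition element, and TGACGTCA, the cAMP response element.
MAF: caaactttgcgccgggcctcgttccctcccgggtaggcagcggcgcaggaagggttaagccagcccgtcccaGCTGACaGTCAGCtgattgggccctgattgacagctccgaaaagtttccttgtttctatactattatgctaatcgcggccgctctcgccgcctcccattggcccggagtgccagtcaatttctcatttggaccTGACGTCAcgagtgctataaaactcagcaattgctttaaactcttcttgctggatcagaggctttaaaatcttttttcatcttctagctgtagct
ITGB7: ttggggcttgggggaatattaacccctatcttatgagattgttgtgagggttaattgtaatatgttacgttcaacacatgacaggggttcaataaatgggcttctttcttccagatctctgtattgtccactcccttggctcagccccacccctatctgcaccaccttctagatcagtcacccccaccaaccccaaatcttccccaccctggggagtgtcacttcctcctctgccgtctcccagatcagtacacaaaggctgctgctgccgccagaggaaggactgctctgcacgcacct
CCR1: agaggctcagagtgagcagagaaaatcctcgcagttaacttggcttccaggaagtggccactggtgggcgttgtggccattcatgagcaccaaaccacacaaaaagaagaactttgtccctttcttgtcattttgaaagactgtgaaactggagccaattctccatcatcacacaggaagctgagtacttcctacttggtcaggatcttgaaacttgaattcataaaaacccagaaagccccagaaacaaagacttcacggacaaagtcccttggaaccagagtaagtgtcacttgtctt

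The MAF window held GCTGAC 2 times on facing strands, with first bases at positions -178 and -171 from the start, and TGACGTCA 1 time at position -45. The ITGB7 and CCR1 windows held neither. Of 35116 human promoter windows of this length, 15.2% held GCTGAC and 1.85% held TGACGTCA on either strand. The longer arm TGCTGAC, which contains GCTGAC, was in 4.19% of windows and in none of the MAF, ITGB7, CCR1 and NUAK1 windows, while 1 of the 3 windows of CCND3 held it. The AP-1 site TGACTCA was in 4.95% of windows and in none of these. Windows of CCND1 and CCND2 were not available and were not searched. Neither full palindromic form of the MAF recognition element was in any window, 0 of 35116. A match describes the letters in a window and is not a measured binding site.

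Reads on genes ran from 41964250 to 58419576 per CR library, 31709636 to 34339788 per BR library and 39032731 to 46874782 per naive library of 8226, and from 49157882 to 57896736 (BR) and 49097494 to 72288680 (naive) in 5TGM1. Levels are CPM, read counts scaled to a common library total, on library sizes scaled by TMM, given as mean ± SD over 3 libraries, and changes are log2 fold changes ± SE. Adjusted p-values come from edgeR (quasi-likelihood F test) after Benjamini-Hochberg correction over all genes tested. A gene is said to rise or fall only where its adjusted p was below 0.05. In bulk RNA a change in the share of cells that express a gene and a change in RNA per cell cannot be told apart.

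Most genes moved between these lines, so the count of members that moved is not particular to them. Between BR and naive 8226 cells 7 of 7 members were called (5 lower, 2 higher), where 79.8% of the 13910 genes tested were. Between CR and naive cells 7 of 7 were called (4 lower, 3 higher), against 71.7% of all genes. Between CR and BR cells 5 of 7 were called (4 higher, 1 lower), against 76.9%. In 5TGM1, 4 of the 4 members that could be tested were called, against 67.2% of 11974 genes. The libraries of the groups compared did not overlap for any tested member, which was also so for 79.6% (BR and naive 8226), 73.1% (CR and naive), 79.8% (CR and BR) and 69.7% (5TGM1) of all genes. The members differed in direction and size. ITGB7 and CCR1 fell in both resistant lines and further in the BR line. MAF and CCND2 also fell in both, and in CR cells the falls of CCR1 (-0.77) and CCND2 (-0.74) were of like size. NUAK1 and CCND3 rose in both lines, and CCND1 rose in the CR line.

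**Figure D1:**
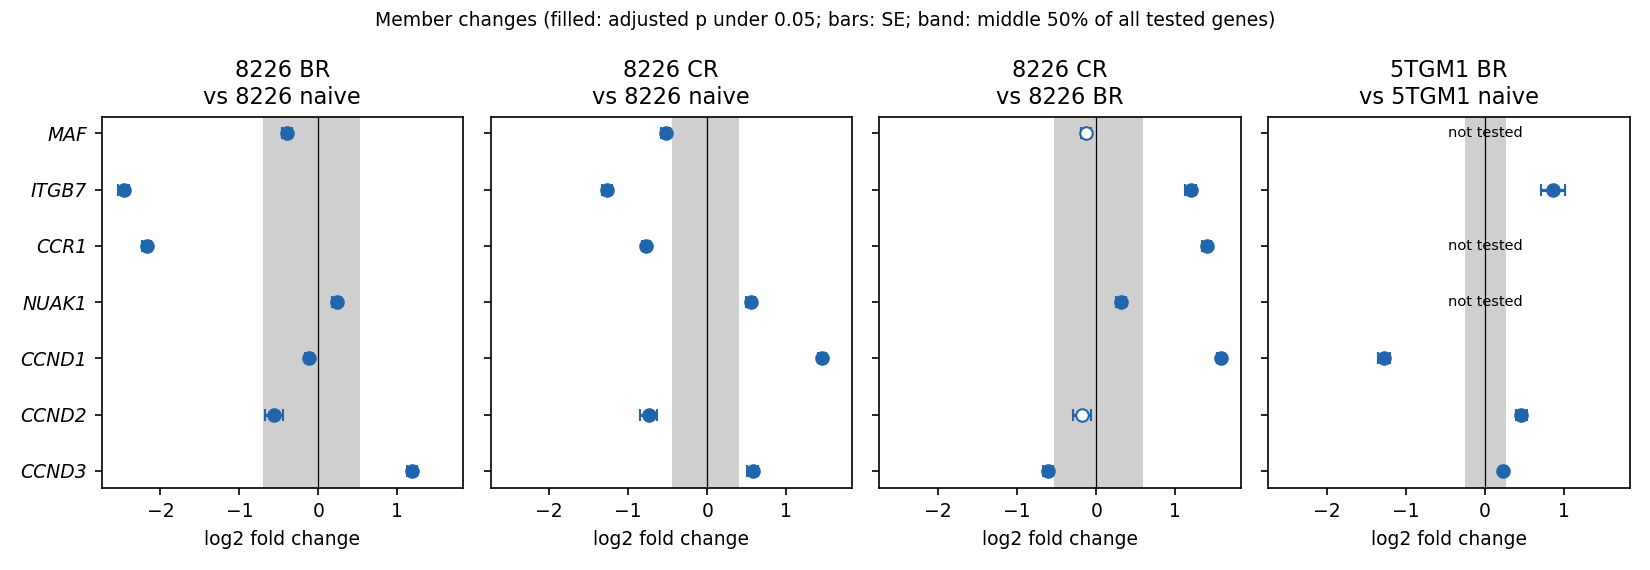
Log2 fold change of each member in 4 comparisons, with bars for the SE, filled points for adjusted p below 0.05 and a grey band for the range between the quartiles of all tested genes. MAF lies inside the band in BR against naive 8226 (-0.40), where ITGB7 (-2.46), CCR1 (-2.17) and CCND3 (1.19) lie outside it; MAF, CCR1 and NUAK1 of 5TGM1 were not tested.

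MAF transcript was abundant in all 3 groups of 8226 and lower in both resistant lines. It stood at 1201, 1169 and 1121 CPM in the CR libraries, at 1307, 1290.1 and 1220 CPM in the BR libraries, and at 1725, 1542 and 1763 CPM in the naive libraries. Every resistant library was below every naive one, and the CR and BR libraries lay close together without overlapping. MAF fell in CR cells relative to naive ones (-0.53 ± 0.0592, 1.44-fold, adjusted p = 1e-06) and in BR cells (-0.40 ± 0.0592, 1.32-fold, adjusted p = 1.6e-05). The CR and BR lines did not differ by the test (-0.13 ± 0.0591, adjusted p = 0.059, 95% interval -0.255 to -0.00258), and this value passed the threshold under other settings given in the closing section. The order of the levels was naive, BR, CR, with the last pair not separated by the test.

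ITGB7, the beta subunit that pairs with the alpha chains ITGA4 and ITGAE, had the largest fall of the 7 genes in both resistant lines. It stood at 1251, 1310 and 1303 CPM in the CR libraries, at 543, 555 and 590 CPM in the BR libraries, and at 3112, 2777 and 3426 CPM in the naive libraries. The 3 groups were separate, with the BR line lowest. ITGB7 fell in CR cells (-1.27 ± 0.0690, 2.41-fold, adjusted p = 1.9e-10) and in BR cells (-2.46 ± 0.0718, 5.52-fold, adjusted p = 6e-14). It was 2.29-fold higher in CR than in BR cells (1.19 ± 0.0690, adjusted p = 3e-10). Its change in BR cells lay at percentile 12.2 of all genes tested, so larger falls were common in that line.

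CCR1, a receptor for CCL3, CCL5 and CCL7, followed the same order. Its levels were 178, 179 and 178 CPM in the CR libraries, 71.4, 65.8 and 66.0 CPM in the BR libraries, and 298, 324 and 293 CPM in the naive libraries. No group overlapped another. CCR1 fell in CR cells (-0.77 ± 0.0533, 1.71-fold, adjusted p = 3.4e-09) and in BR cells (-2.17 ± 0.0561, 4.51-fold, adjusted p = 1.4e-14), and it was 2.64-fold higher in CR than in BR cells (1.40 ± 0.0551, adjusted p = 2.8e-12).

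NUAK1, the kinase reported as activated by MAF-family factors in myeloma, moved the other way from MAF. It stood at 46.8, 47.8 and 47.8 CPM in the CR libraries, at 37.3, 37.0 and 40.3 CPM in the BR libraries, and at 33.3, 30.9 and 33.4 CPM in the naive libraries. Both resistant lines were above the naive one, and the CR line was highest. NUAK1 rose by 0.55 ± 0.0579 in CR cells (1.46-fold, adjusted p = 5.2e-07) and by 0.23 ± 0.0588 in BR cells (1.18-fold, adjusted p = 0.002), and the lines differed by 0.31 ± 0.0577 (CR over BR, adjusted p = 0.00014).

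**Figure D2:**
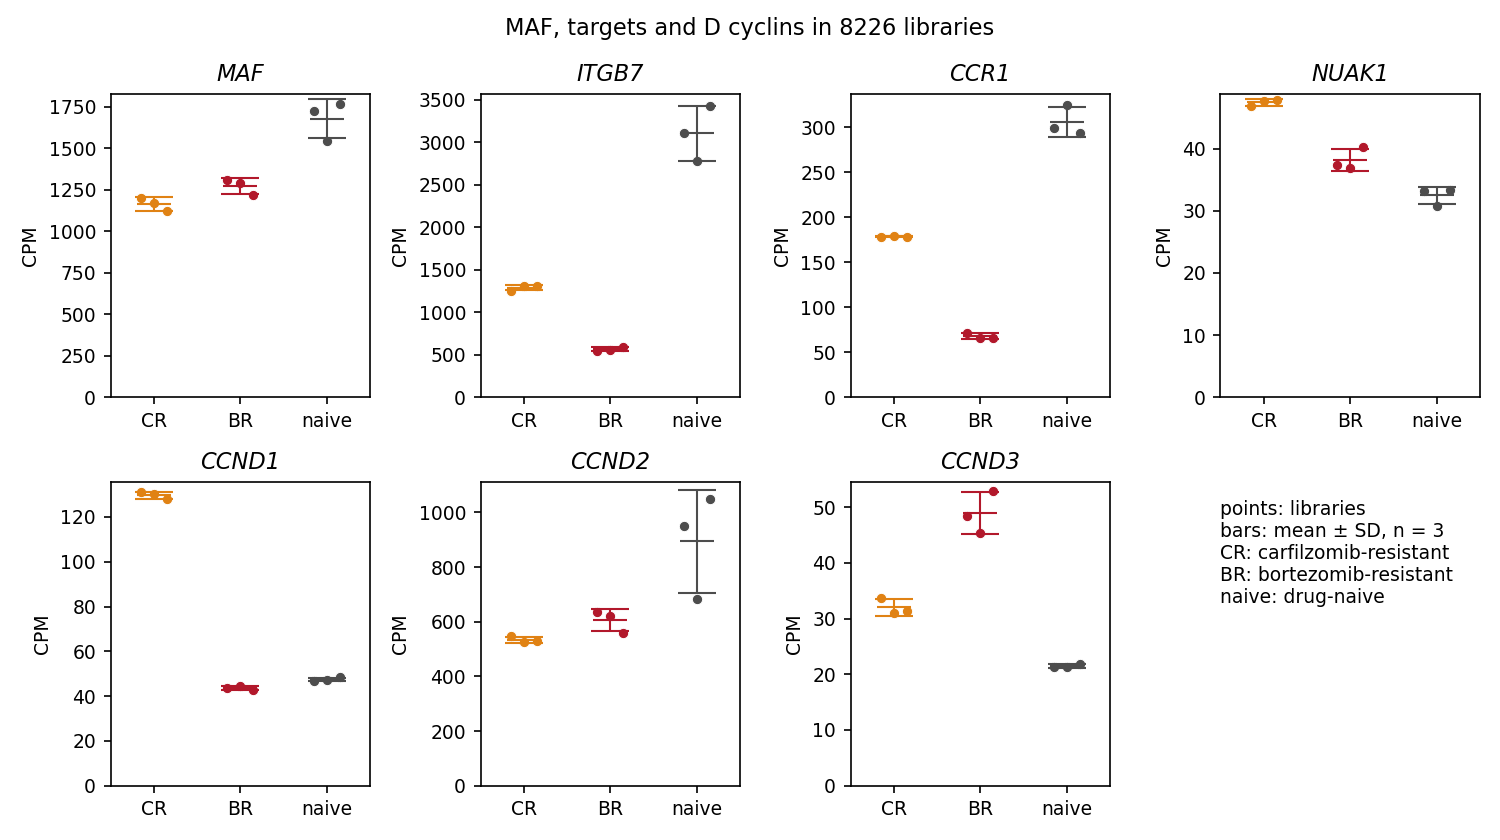
CPM of the 7 members in the 9 libraries of 8226, with a linear axis from 0 in each panel, points for libraries and bars for the mean ± SD of 3 libraries. ITGB7 and CCR1 step down through the naive, CR and BR libraries, CCND3 steps up in the same order, and CCND1 is near 130 CPM only in the CR libraries.

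CCND2, the D cyclin reported as a MAF target, was lower in both resistant lines. Its levels were 547, 525 and 529.7 CPM in the CR libraries, 635, 621 and 559 CPM in the BR libraries, and 949.7, 684 and 1049.9 CPM in the naive libraries. The naive libraries spread widely, and the lowest of them, at 684 CPM, came nearest to the highest BR library. CCND2 fell in CR cells (-0.74 ± 0.110, 1.68-fold, adjusted p = 2e-05) and in BR cells (-0.56 ± 0.110, 1.48-fold, adjusted p = 0.00023). The resistant lines did not differ by the test (CR over BR -0.18 ± 0.110, adjusted p = 0.15, 95% interval -0.415 to 0.0547), although their libraries did not overlap. Both falls stayed called whichever library was left out, as given in the closing section.

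CCND1, the D cyclin at the locus of the most frequent cyclin translocation in myeloma, separated the CR line from the rest of 8226. It stood at 131, 130.1 and 128 CPM in the CR libraries, at 43.5, 44.6 and 42.7 CPM in the BR libraries, and at 46.9, 47.1 and 48.3 CPM in the naive libraries. CCND1 was 2.73-fold higher in CR than in naive cells (1.45 ± 0.0486, adjusted p = 5.2e-13) and 2.97-fold higher in CR than in BR cells (1.57 ± 0.0490, adjusted p = 1.6e-13). The BR libraries were below the naive ones by a small step (-0.12 ± 0.0494, adjusted p = 0.033). That step changed sign when libraries were scaled by their total alone (0.064, adjusted p = 0.24), so its direction depends on the scaling.

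CCND3, a D cyclin needed in lymphocyte development, was highest in the BR line. It stood at 33.7, 31.0 and 31.3 CPM in the CR libraries, at 48.4, 45.4 and 52.9 CPM in the BR libraries, and at 21.4, 21.2 and 21.9 CPM in the naive libraries. The 3 groups were separate. CCND3 rose by 0.58 ± 0.0673 in CR cells (1.49-fold, adjusted p = 1.6e-06) and by 1.19 ± 0.0674 in BR cells (2.28-fold, adjusted p = 2e-10), and it was lower in CR than in BR cells (-0.61 ± 0.0652, adjusted p = 4.4e-07).

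Per kb of exon, CCND2 remained the most abundant D cyclin transcript in every 8226 library. The exon lengths used were 4830 bases for CCND1, 7157 for CCND2 and 5802 for CCND3, from GENCODE release 29, which may differ from the annotation behind the counts. On this scale CCND2 was at 74.6 ± 1.63 CPM per kb in CR, 84.6 ± 5.70 in BR and 125 ± 26.4 in naive cells. Its share of the 3 D cyclins was 69.7 ± 0.249% in CR, 82.8 ± 1.34% in BR and 90.0 ± 2.0% in naive libraries. CCND1 made up 25.1 ± 0.359% in CR, 8.86 ± 0.358% in BR and 7.28 ± 1.46% in naive libraries. CCND3 made up 5.16 ± 0.140% in CR, 8.30 ± 1.06% in BR and 2.74 ± 0.539% in naive libraries. The D cyclins together summed to 107 ± 2.08 CPM per kb in CR, 102 ± 5.30 in BR and 139 ± 26.5 in naive cells. The naive sums ran from 109.0 to 160.5 CPM per kb, and the lowest of them lay within the range of the CR libraries (105.7 to 109.4). With the length of the longest coding transcript instead, the CCND3 share was larger, at 10.6% in CR, 16.5% in BR and 5.82% in naive libraries, and CCND2 still made up 65.5%, 75.3% and 87.0% in the same order. MAF and ITGB7 per kb of exon stood at 167 ± 5.76 and 287 ± 7.11 CPM per kb in CR, 182 ± 6.61 and 126 ± 5.46 in BR, and 240.3 ± 17.0 and 693 ± 72.5 in naive cells. ITGB7 was the higher of the pair in every CR and naive library with either length. In BR cells the order depends on the length, since with the longest coding transcript ITGB7 stood at 189, 194 and 206 CPM per kb and MAF at 205, 202 and 191 in the same libraries.

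**Figure D3:**
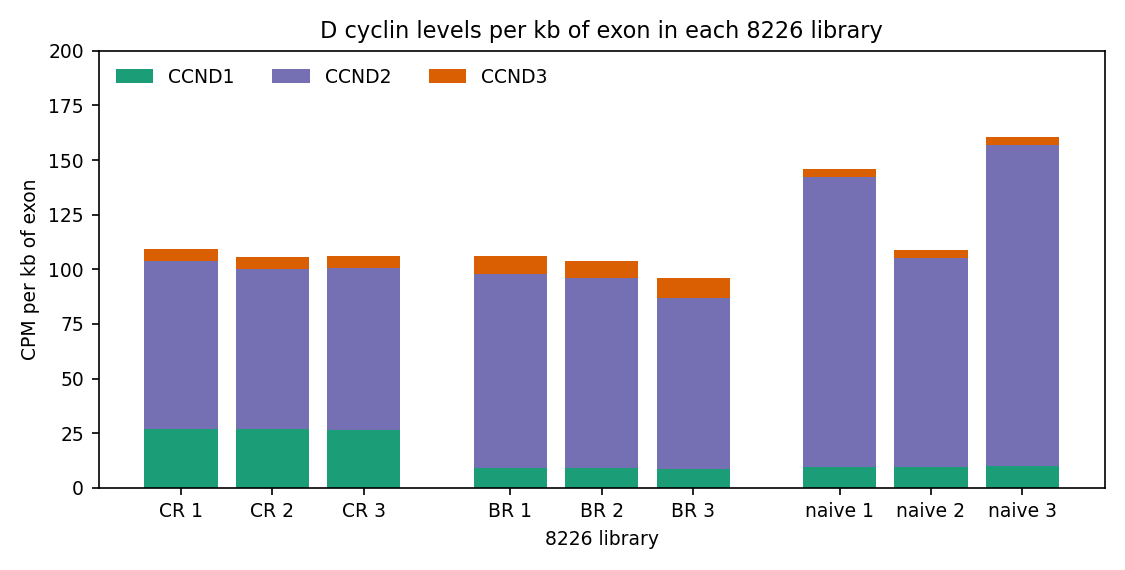
Level of the 3 D cyclins in CPM per kb of exon, stacked for each 8226 library. CCND2 forms the largest part of every bar, CCND1 is widest in the CR libraries (25.1% on average) and CCND3 in the BR libraries (8.30%).

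In 5TGM1 the MAF arm of the list was at or near the limit of detection, and the D cyclins and Itgb7 could be compared. Maf had 1 read over the 3 BR libraries and 0 over the naive libraries, where 3 counts over a group correspond to 0.0185 CPM (BR) and 0.0176 CPM (naive). Ccr1 had 0 reads in both groups, and Nuak1 had 5 reads in BR and 7 in naive libraries. These 3 genes did not pass the filter on low counts and were not tested. Such limits cover counting error only.

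Itgb7 was low in 5TGM1 and rose with resistance. It stood at 1.71, 2.19 and 1.87 CPM in the BR libraries and at 1.26, 0.898 and 1.08 CPM in the naive libraries, without overlap. The change was 0.86 ± 0.151 (1.82-fold, adjusted p = 9.5e-05). It rests on 313 reads in BR and 180 in naive libraries.

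Among the mouse D cyclins, Ccnd2 was the highest in CPM and rose, with 412, 430.3 and 397 CPM in the BR libraries and 257, 326 and 319 CPM in the naive libraries (0.46 ± 0.0676, adjusted p = 1.7e-05). Ccnd3 stood at 105, 110.4 and 106 CPM in the BR libraries and at 91.0, 93.1 and 90.3 CPM in the naive libraries, a rise (0.23 ± 0.0404, adjusted p = 0.00011). Ccnd1 stood at 5.48, 5.65 and 5.94 CPM in the BR libraries and at 12.1, 14.7 and 14.5 CPM in the naive libraries, a fall (-1.28 ± 0.0798, 2.43-fold, adjusted p = 5.2e-10). None of these overlapped between groups. The fall of Ccnd1 lay at percentile 3.92 and the rise of Itgb7 at percentile 95.2 of all mouse genes tested. Reads on the strand opposite to Ccnd1 made up 27.3% of its stranded reads in BR and 19.7% in naive libraries, against 1.83% to 2.12% over all genes of a mouse library. Counted without regard to strand, Ccnd1 was 7.82 CPM in BR and 17.2 CPM in naive cells and stayed lower in BR cells. Ccnd3 was counted lower without regard to strand, at 71.5 CPM in BR and 62.9 CPM in naive cells, so part of its reads overlap another gene when strand is ignored.

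**Figure D4:**
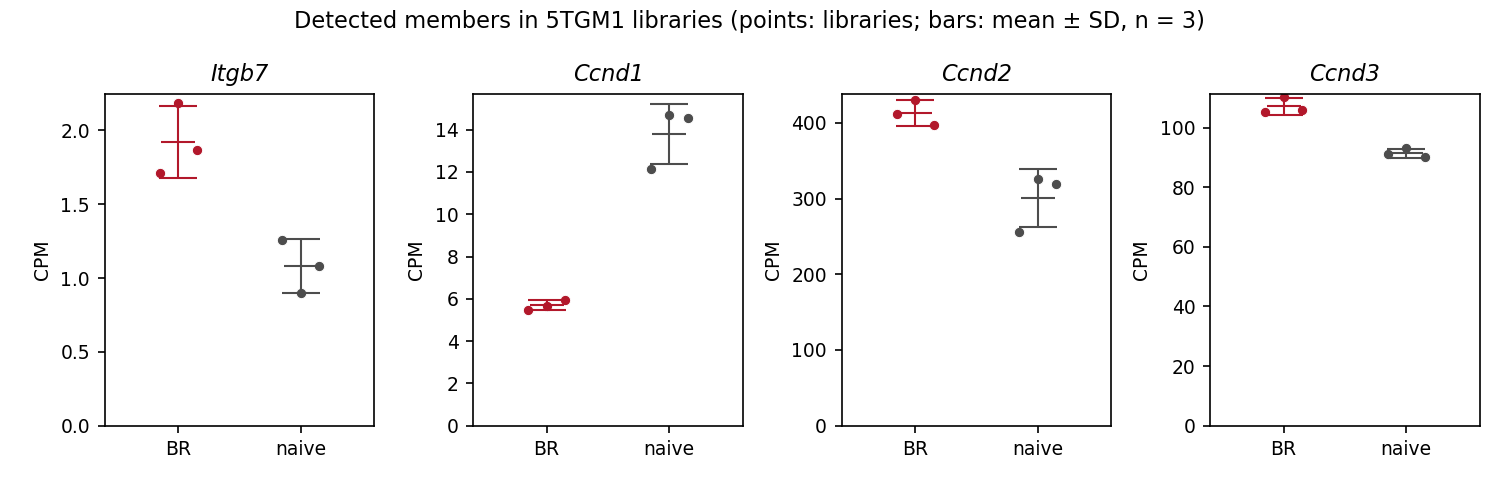
CPM of Itgb7, Ccnd1, Ccnd2 and Ccnd3 in the 6 libraries of 5TGM1, with a linear axis from 0 in each panel, points for libraries and bars for the mean ± SD of 3 libraries. The BR libraries lie above the naive ones for Itgb7, Ccnd2 and Ccnd3 and below them for Ccnd1.

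The change with bortezomib resistance was then compared between the lines in a fit over 11847 genes with the same symbol in both species, in which 64.9% of genes differed. All 4 testable members differed. For ITGB7 the change in 8226 minus that in 5TGM1 was -3.30 ± 0.178 (adjusted p = 2.7e-12), a fall in 8226 set against a rise in 5TGM1. CCND2 also went in opposite directions (-1.002 ± 0.157, adjusted p = 1.3e-05). For CCND1 the difference was 1.18 ± 0.0980 (adjusted p = 2.1e-09), with a fall in 5TGM1 (-1.28) set against a small step in 8226 (-0.12) whose sign depends on the scaling. CCND3 rose in both lines and more in 8226 (0.98 ± 0.0795, adjusted p = 1.5e-09). For MAF, CCR1 and NUAK1 the difference could not be estimated, because the mouse genes were at or near 0.

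Small MAFs and their partners moved in both directions in 8226. Of the 10 tested family members and dimer partners, 2 were higher and 4 lower in CR than in naive cells (median -0.06, and 0.00089 with library size alone), and 6 were higher and 3 lower in BR than in naive cells (median 0.28). Over all genes tested, 35.0% were higher and 36.7% lower in CR cells (median -0.0036), and 38.2% higher and 41.6% lower in BR cells (median -0.026). BACH2, a repressor that dimerises with small MAF proteins, was at 3.65 ± 0.148 CPM in CR, 19.9 ± 0.277 in BR and 5.64 ± 0.591 in naive cells, called lower in CR and higher in BR. MAFF, a small MAF, was at 4.31 ± 0.360 CPM in CR, 12.3 ± 0.608 in BR and 9.11 ± 0.743 in naive cells, and moved in the same way. NFE2L2, the NRF2 factor that dimerises with small MAFs, fell in BR cells (68.2 ± 2.93 CPM, against 104 ± 4.44 in naive cells). In 5TGM1, of 7 tested members 2 rose and 4 fell, where 34.0% of all mouse genes tested rose and 33.2% fell.

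Other genes reported high in MAF-class myeloma mostly fell in 8226. Of 11 tested, 8 were lower and 2 higher in CR than in naive cells (median -0.68). With library size alone 7 were lower in CR cells. The CR falls include NTRK2 and CXCR5, both below 1 CPM in every 8226 group. In BR cells 7 were lower and 4 higher than in naive cells (median -0.90). Over all genes tested, 36.7% were lower and 35.0% higher in CR cells, and 41.6% lower and 38.2% higher in BR cells. SPP1, the secreted phosphoprotein osteopontin, had 5 reads in the CR libraries, 29 in the BR libraries and 74738 in the naive libraries. CX3CR1, the fractalkine receptor, was at 484 ± 11.9 CPM in CR, 6.29 ± 0.445 in BR and 829 ± 28.7 in naive cells, the same order of groups as CCR1. DEPTOR, an inhibitor of mTOR, did not follow that order, with 62.8 ± 1.45 CPM in CR and 135 ± 2.43 in BR cells (-1.10 ± 0.0471, adjusted p = 7.6e-12). NOTCH2, a receptor reported as raised with MAF, was higher in CR than in naive cells (583 ± 43.2 CPM, against 334 ± 25.5). In 5TGM1, 1 of 6 tested rose and 4 fell, with Spp1 at 58.2 ± 0.624 CPM in BR and 69.2 ± 2.95 in naive cells. Over all mouse genes tested, 34.0% rose and 33.2% fell.

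The other oncogenes of recurrent myeloma translocations gave mixed changes in 8226. FGFR3 had 1 read in the CR libraries, 1 in the BR libraries and 133 in the naive libraries, a ratio of naive to CR of 166 (95% exact interval 29.4 to 6624) and of naive to BR of 118 (20.8 to 4698), for counting error only. WHSC1, the histone methyltransferase now called NSD2, was at 419 ± 12.1 CPM in CR, 325 ± 10.1 in BR and 187 ± 8.72 in naive cells and rose in both lines. MYC rose in CR cells (1079 ± 17.7 CPM) and fell in BR cells (703 ± 8.56), against 913 ± 31.9 CPM in naive cells. In 5TGM1 both tested genes, Whsc1 and Myc, fell slightly (-0.17 and -0.15), where 33.2% of all mouse genes tested fell.

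The partners of the beta7 integrin moved in different directions. ITGA4, the alpha chain that pairs with ITGB7 as well as with ITGB1, had 3 reads in the CR libraries, 1 in the BR libraries and 4542 in the naive libraries. The ratio of naive to CR was 1895 (95% exact interval 648 to 9193, counting error only). ITGAE, the other alpha chain of ITGB7, was at 12.3 ± 0.638 CPM in CR, 17.0 ± 1.36 in BR and 10.4 ± 1.16 in naive cells. ITGB1, the alternative beta chain for ITGA4, was at 78.3 ± 4.27 CPM in CR, 107 ± 0.266 in BR and 59.5 ± 6.15 in naive cells, called higher in both. CDH1, the E-cadherin ligand of the ITGAE pair, was at 1.77 ± 0.150 CPM in CR, 1.83 ± 0.580 in BR and 4.11 ± 0.585 in naive cells. FN1, the fibronectin ligand of integrins with ITGA4, was at 2798 ± 183 CPM in BR and 8273 ± 683 in naive cells (-1.56 ± 0.0772, adjusted p = 3.6e-11) and was not called in CR cells (8399.7 ± 686 CPM). VCAM1, an endothelial and stromal ligand of the same integrins, had 601 reads in the BR libraries and 0 in the naive libraries, at least 226-fold higher against 3 counts over the group. Of the 6 tested genes of this list, 2 were higher and 2 lower in CR cells, and 3 higher and 3 lower in BR cells. The shares over all genes were 35.0% higher and 36.7% lower in CR cells, and 38.2% and 41.6% in BR cells. In 5TGM1, Itga4 stayed at 377 ± 20.8 CPM in BR and 393 ± 30.7 in naive cells (-0.06 ± 0.0540, adjusted p = 0.35). Of 4 tested mouse genes 1 was higher, Itgb1, and 1 lower, Cdh1, where 34.0% of all mouse genes were higher and 33.2% lower. The fall of Cdh1 rests on 15 reads in BR and 44 in naive libraries.

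Ligands of CCR1 and related receptors changed in both directions. CCL5, a ligand of CCR1, was at 25.4 ± 2.41 CPM in CR, 51.4 ± 2.05 in BR and 8.12 ± 0.219 in naive cells, and so rose where its receptor CCR1 fell. CCL3, another ligand, was at 0.146 ± 0.0662 CPM in CR, 3.73 ± 0.470 in BR and 0.0981 ± 0.0156 in naive cells. Any read that mapped equally well to the near-identical CCL3L1 was left uncounted, so CCL3 may be undercounted. CCR2, a related chemokine receptor, was at 66.0 ± 3.52 CPM in CR and 43.4 ± 1.29 in naive cells, with 4 reads in the BR libraries. Of 8 tested genes, 5 were higher and 1 lower in CR cells (median 0.75), and 4 were higher and 4 lower in BR cells (median 1.05). Of all genes tested, 35.0% were higher and 36.7% lower in CR cells, and 38.2% higher and 41.6% lower in BR cells. In 5TGM1, of 6 tested 2 rose and 4 fell, where 34.0% of all mouse genes rose and 33.2% fell. Ccl3 was at 5.19 ± 0.163 CPM in BR and 17.2 ± 0.762 in naive 5TGM1 cells.

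Of 6 partners of NUAK1, 4 were higher and 1 lower in CR cells, and 3 were higher and 3 lower in BR cells. The shares over all genes were 35.0% higher and 36.7% lower in CR cells, and 38.2% and 41.6% in BR cells. NUAK2, the closest relative of NUAK1, moved opposite to it, at 7.53 ± 0.424 CPM in CR, 18.4 ± 0.518 in BR and 25.8 ± 1.42 in naive cells. CAB39, a scaffold of the LKB1 complex that activates NUAK kinases, was at 202 ± 3.30 CPM in CR, 132 ± 5.94 in BR and 102 ± 5.00 in naive cells. STK11, which encodes LKB1, rose in CR cells (0.36 ± 0.0741, adjusted p = 0.00045). In 5TGM1, 2 of 5 tested rose, Strada and Stk11, and none fell, where 34.0% of all mouse genes rose and 33.2% fell.

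The kinases that D cyclins activate differed between the resistant lines, with CDK4 higher (0.57 ± 0.0607, adjusted p = 4.1e-07) and CDK6 lower (-0.83 ± 0.0866, adjusted p = 3.2e-07) in CR than in BR cells. CDK4 was at 254 ± 7.44 CPM in CR, 171 ± 12.6 in BR and 257 ± 14.4 in naive cells, lower in BR than in naive cells (-0.59 ± 0.0607, adjusted p = 2.8e-07) and not called in CR cells (-0.017 ± 0.0602, adjusted p = 0.81; 0.045 with library size alone). CDK6 was at 196 ± 7.24 CPM in CR, 349 ± 20.3 in BR and 259.98 ± 39.7 in naive cells, higher in BR (0.43 ± 0.0862, adjusted p = 0.00032) and lower in CR cells (-0.41 ± 0.0863, adjusted p = 0.00057). This list adds CDK2 and the E cyclins, which act after CDK4 and CDK6. Of its 5 genes, 1 was higher and 2 lower in CR cells, and 2 were higher and 2 lower in BR cells. The shares over all genes were 35.0% higher and 36.7% lower in CR cells, and 38.2% and 41.6% in BR cells. CCNE2 rose in both, to 45.6 ± 1.22 CPM in CR and 38.9 ± 2.30 in BR, against 25.7 ± 2.81 in naive cells. Reads on the strand opposite to CCNE2 made up 17.3% of its stranded reads in CR, 22.8% in BR and 31.5% in naive libraries. Over all genes of an 8226 library that share was 1.43% to 1.64%. The rise of CCNE2 without regard to strand is not given here. In 5TGM1, Cdk4 was at 422 ± 3.39 CPM in BR and 419.9 ± 6.42 in naive cells and was not called (0.0074 ± 0.0374, adjusted p = 0.87). Cdk6 had 8 reads in BR and 15 in naive libraries. Of 4 tested mouse genes 1 rose and 2 fell, where 34.0% of all mouse genes rose and 33.2% fell.

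Of 6 CDK inhibitors tested, 4 were lower and 0 higher in CR than in naive cells (median -1.18). Over all genes tested, 36.7% were lower and 35.0% higher in CR cells, and 41.6% lower and 38.2% higher in BR cells. CDKN1A, which encodes p21, was at 4.31 ± 0.327 CPM in CR, 16.8 ± 1.74 in BR and 22.4 ± 1.13 in naive cells. CDKN1B, which encodes p27, was at 64.4 ± 2.25 CPM in CR, 111 ± 1.53 in BR and 138 ± 9.60 in naive cells. CDKN1C, which encodes p57, was at 5.13 ± 0.401 CPM in CR, 28.7 ± 2.69 in BR and 35.5 ± 4.12 in naive cells. In BR cells 2 were higher and 3 lower (median -0.25; 1 lower with library size alone), and between CR and BR cells 0 were higher and 5 lower, where 39.9% of all genes were higher and 37.0% lower. CDKN2A was not called in either line (in BR cells adjusted p = 0.048 with RLE scaling), at 66.5 ± 3.66 CPM in CR, 62.0 ± 6.54 in BR and 70.8 ± 11.5 in naive cells. CDKN2C, an inhibitor of CDK4 and CDK6 often deleted in myeloma, had 0 reads in all 9 libraries of 8226. In 5TGM1, 4 of 6 were higher and 0 lower, where 34.0% of all mouse genes tested were higher and 33.2% lower. There Cdkn1a was at 335 ± 7.82 CPM in BR and 146 ± 3.40 in naive cells, Cdkn2d at 29.2 ± 0.699 and 15.2 ± 0.523 CPM in the same order, and Cdkn2c at 47.9 ± 2.16 and 47.1 ± 0.224 CPM, not called (adjusted p = 0.61).

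Downstream of the cyclin kinases, RB1 fell in both human lines, to 159 ± 3.51 CPM in CR and 189 ± 6.01 in BR, against 224 ± 9.76 in naive cells, though not in BR cells with library size alone (-0.061, adjusted p = 0.26). Of 7 genes of the RB family and E2F, 2 were higher and 4 lower in CR cells, and 1 was higher and 4 lower in BR cells, while in 5TGM1 4 rose and 2 fell. Over all human genes tested, 35.0% were higher and 36.7% lower in CR cells, and 38.2% and 41.6% in BR cells. Of 16 RB-E2F target and proliferation genes, 12 were lower and 1 higher in BR than in naive cells (median -0.30). With library size alone these counts were 8 lower and 4 higher (median -0.11). In CR cells 5 were lower and 4 higher than in naive cells (median -0.019, and 0.043 with library size alone). Between CR and BR cells 14 were higher and 2 lower in CR (median 0.42), where 39.9% of all genes were higher and 37.0% lower. MCM6, a subunit of the replicative helicase, was at 452 ± 12.8 CPM in CR, 205 ± 2.04 in BR and 446 ± 19.1 in naive cells. In 5TGM1, 14 of the 16 fell and 0 rose (median -0.28), where 34.0% of all mouse genes were higher and 33.2% lower. There Ccnb1, the mitotic cyclin B1, was at 158 ± 2.75 CPM in BR and 232 ± 3.39 in naive cells.

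**Figure D5:**
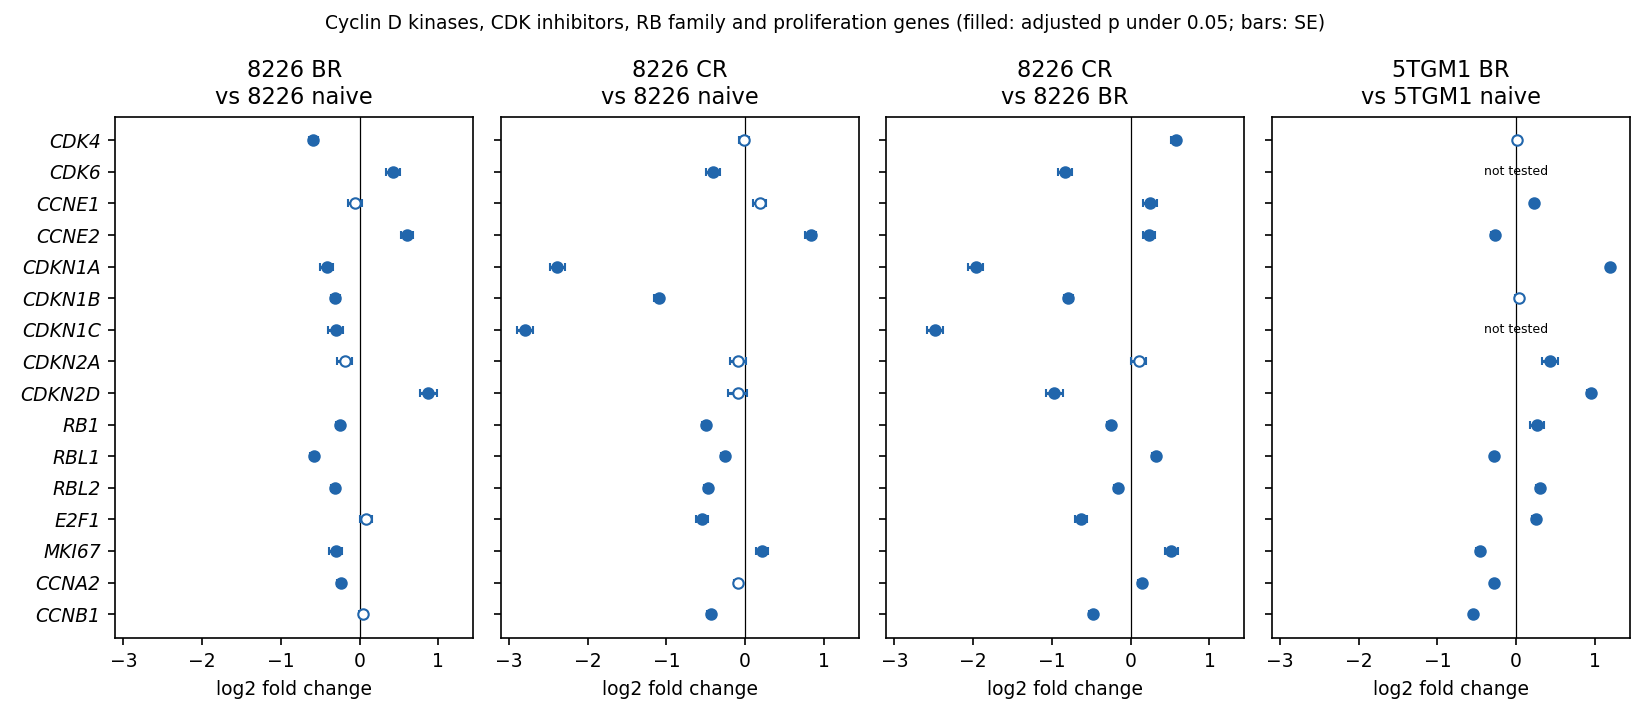
Log2 fold change of cyclin D kinases, E cyclins, CDK inhibitors, RB family genes and proliferation genes in 4 comparisons, with bars for the SE and filled points for adjusted p below 0.05. CDKN1A and CDKN1C are far below 0 in CR against naive 8226, while CDKN1A is above 0 in 5TGM1; CDK6 and CDKN1C of 5TGM1 were not tested.

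Genes that act on the turnover of D cyclin protein moved in both directions, with 3 of 6 tested higher and 3 lower in CR cells and 2 higher and 3 lower in BR cells. Of all genes tested, 35.0% were higher and 36.7% lower in CR cells, and 38.2% higher and 41.6% lower in BR cells. FBXO4, an F-box protein reported to target cyclin D1, stood out at 11.7 ± 0.500 CPM in CR, 0.261 ± 0.0146 in BR and 7.62 ± 0.461 in naive cells. It fell in BR cells (-4.85 ± 0.149, adjusted p = 1.1e-13) and rose by 0.62 ± 0.0776 in CR cells (adjusted p = 3.6e-06). USP2, a deubiquitinase reported to spare cyclin D1, fell in both, at 1.22 ± 0.124 CPM in CR, 0.904 ± 0.0944 in BR and 2.72 ± 0.268 in naive cells. In 5TGM1, 3 of 6 rose and 1 fell, where 34.0% of all mouse genes rose and 33.2% fell. Fbxo4 was at 24.4 ± 1.30 CPM in BR and 22.3 ± 0.368 in naive 5TGM1 cells.

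The genes whose levels over the 9 libraries of 8226 were most like those of each member were found by Pearson's r of log2 CPM, among genes of at least 5 CPM on average. The libraries form 3 groups, so r mainly describes the order and spacing of the groups. For MAF these were SKIL (r = 0.993), PBXIP1 and PANX2, and for ITGB7 they were SSR3 (0.999), MPI and PIK3R3. CCR1 was most like TMEM2 (0.999), ALG8 and UBE2E3, and NUAK1 most like TUBA4A (0.996), GLB1L2 and JUN. CCND1 was most like CDCA7 (0.998), ARHGAP30 and CAPN6, CCND2 like RGMB (0.978), WDR36 and ISYNA1, and CCND3 like DNAJB2 (0.994), AQP3 and DHDDS. SSR3, a subunit of the translocon-associated complex, was at 941 CPM in CR, 562 in BR and 1638 in naive cells, the order of ITGB7. CDCA7, a gene regulated with the cell cycle, was at 215 CPM in CR, 79.6 in BR and 84.2 in naive cells, the order of CCND1.

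Markers of the labelled cell type were present and moved with the lines. The 10 plasma cell markers summed to 5756 to 5961 CPM in CR, 3885 to 4025 CPM in BR and 8622 to 9798 CPM in naive 8226 libraries. That is the order of ITGB7 and CCR1, and the markers' part in those changes was not tested. Most of each sum was IGJ, at 4288 ± 82.3 CPM in CR, 2221 ± 55.6 in BR and 6895 ± 665 in naive cells. The other markers did not all share this order. XBP1 did (609 CPM in CR, 316 in BR and 833 in naive cells), but IRF4 did not (155, 541 and 358 CPM). In 5TGM1 the 10 markers summed to 9049 to 9434 CPM in BR and 6657 to 6908 CPM in naive libraries. In CR cells 8 of 10 were lower and 2 higher, in BR cells 7 lower and 3 higher, and in BR 5TGM1 cells 3 of 9 tested lower and 5 higher. The shares lower and higher over all genes were 36.7% and 35.0% in CR, 41.6% and 38.2% in BR, and 33.2% and 34.0% in 5TGM1. The 9 myeloid markers summed to 175 to 188 CPM in CR, 35.0 to 35.8 CPM in BR and 53.3 to 58.4 CPM in naive libraries. Most of the CR sum was ITGAM (158 ± 6.50 CPM), and FCGR3A was at 0 in every 8226 group. Most of the naive sum was CD68, which fell in both resistant lines (48.3 CPM in naive, 13.7 in CR and 8.63 in BR cells). The largest part of the BR sum was EMR1 (16.7 CPM, against 6.38 in CR and 0.529 in naive cells). The sums therefore compare different genes between groups. Of the 5 tested myeloid markers, 3 were higher and 2 lower in CR cells, and 2 higher and 2 lower in BR cells. CCR1, which myeloid cells also express, was lower in CR than in naive cells, and its link to these markers was not tested. In 5TGM1 the myeloid sum was 352 to 402 CPM in BR and 266 to 270 CPM in naive libraries, nearly all Cd68. T cell markers summed to 8.95 to 9.68 CPM in CR, 12.6 to 13.0 in BR and 10.2 to 11.3 in naive 8226 libraries. Most of the BR sum was CD8A, at 9.88 ± 0.372 CPM in BR and 4.58 ± 0.443 in naive cells. In BR cells 4 of the 5 tested T cell markers were lower and 1 higher, and 4 of the 7 listed had 0 reads. The T cell sum was 2.68 to 3.30 CPM in BR and 2.32 to 2.33 in naive 5TGM1 libraries. Fibroblast and stromal markers summed to at most 0.580 CPM in CR, 1.40 in BR and 1.87 in naive 8226 libraries, with DCN and LUM at 0, and to at most 2.08 CPM in BR and 2.57 in naive 5TGM1 libraries.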

How the data were processed

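The authors deposited whole-number read counts per gene, not normalized, as STAR writes them, in columns without regard to strand, on one strand and on the other. The submitters' processing notes name STAR. The STAR version and annotation are not given in the sources used here. Named builds are hg19, GRCh37, mm10 and GRCm38, none assigned to a file. Column 4 was used, since column 3 held 1.43% to 2.12% of stranded gene reads. The 4 rows of totals were dropped before scaling. Multimapped reads were left uncounted (8.95% to 10.9% of reads in 8226, 15.3% to 16.3% in 5TGM1), and reads on no gene made up 10.4% to 16.6% and 10.6% to 12.0%. The samples were grouped by their titles.

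Counts were filtered with filterByExpr, scaled by TMM (factors 0.937 to 1.08 in 8226 and 0.996 to 1.00 in 5TGM1) and tested with edgeR 4.0.16 and limma 3.58.1 in R 4.3.3, with all 9 libraries of 8226 in one fit, 6 of 5TGM1 in another and 12 in the test between lines, where 15494 symbols matched ignoring case. SEs came from the F statistic. The procedure was tested on simulated counts. No 2 libraries of a group agreed within sampling noise (chi-square per degree of freedom 3.98 to 25.8). Each was counted as a replicate, though this spread cannot show whether they were separate cultures. A count of 0 allows up to 3 counts at 95% confidence.

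The members and lists were chosen with earlier results of these data known. Named genes are the 7 members, CDK4, CDK6, ITGA4, FGFR3 and CDKN2C, up to 4 called genes per list with the largest change and at least 1 CPM, and the 3 genes most like each member, leaving out unnamed loci and XIST. Some genes that meet the rule are given as counts only, and some are not reported here. CDKN2A, and values in a further group or comparison that complete an order, were added after they were seen. NTRK2 and CXCR5 of 8226 and Cdh1 of 5TGM1 are named although they were below 1 CPM. Alternatives tried were RLE scaling, library size alone, no filter, DESeq2 1.42.0, counts without regard to strand, a replicate block, only the groups compared, and leaving out each library.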

Additional observations from a re-analysis of the deposited data

Results flagged for a closer look

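Of the 7 members, 4 changed differently with bortezomib resistance in 8226 and 5TGM1 cells by the test of the difference itself, edgeR's quasi-likelihood test over matched symbols. The change in 8226 minus that in 5TGM1 was -3.30 for ITGB7 (adjusted p = 2.7e-12), which was lower in every BR library of 8226 and higher in every BR library of 5TGM1. It was -1.002 for CCND2 (adjusted p = 1.3e-05), with the same pair of directions. It was 1.18 for CCND1 (adjusted p = 2.1e-09), lower in every BR library of both lines on this scaling, and 0.98 for CCND3 (adjusted p = 1.5e-09), higher in every BR library of both lines. A difference of this kind was called for 64.9% of matched genes, so it is not particular to these 4. The lines differ in species, drug concentration and derivation, which cannot be told apart here.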

How the results depend on the processing

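Of 195 member changes recomputed under settings that keep all libraries, 187 kept their direction and side of the threshold. The exceptions concern 3 small changes. CCND1 in BR against naive 8226 cells (-0.12) became 0.064 (adjusted p = 0.24) with library size alone, -0.13 (adjusted p = 0.064) with no filter, -0.12 (adjusted p = 0.053) with the replicate block and -0.14 (adjusted p = 0.051) with only the groups compared. MAF in CR against BR cells became -0.25 (adjusted p = 0.0013) with library size alone and -0.13 (adjusted p = 0.022) with only the groups compared. CCND2 in CR against BR cells became -0.30 (adjusted p = 0.023) and -0.18 (adjusted p = 0.0045) under the same settings. The cause was not tested. Leaving out single libraries gave -0.139 to -0.106 for CCND1, which lost its call without naive library 3, BR library 1 or BR library 3 (adjusted p up to 0.092). It gave -0.159 to -0.0990 for MAF, called without naive library 2, naive library 3 or BR library 3, and -0.235 to -0.143 for CCND2, called without naive library 2 (adjusted p = 0.008). The CCND2 falls ran from -0.905 to -0.615 in CR and from -0.728 to -0.436 in BR cells and stayed called. Counts of genes called stayed within 1.5 times of the main count in all 45 fits that left out a library and 33 with another setting. Library size alone moved the median of all genes in BR against naive 8226 cells to 0.157 (main -0.026) and the calls to 6665 higher and 4681 lower (main 5314 and 5781), and in the line difference to a median of 0.148 with 4642 higher and 3235 lower (main 3717 and 3973). Of 70 levels, 19 moved by more than 1 SD under library size alone or without regard to strand. Replicate numbers did not pair libraries, with correlations of same-numbered deviations from -0.105 to 0.156, and the block changed no other member's call. Among the members, depth limits Maf, Ccr1 and Nuak1 of 5TGM1, and other genes given as read counts, such as Cdk6 of 5TGM1 and FGFR3 and ITGA4 of resistant 8226 cells, are limited likewise.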
